A study of Mus musculus with 12 samples.

Results

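The genes described here are the phase II conjugation enzymes of the mouse liver. They were taken by symbol as the UDP-glucuronosyltransferases (symbols that begin Ugt1, Ugt2 or Ugt3 and a letter), the cytosolic sulfotransferases (Sult and a digit) and the soluble glutathione S-transferases of the alpha, mu, pi, theta, omega, kappa and zeta classes. The rule found 59 of 23420 gene symbols, made up of 20 UGT, 18 SULT and 21 GST genes. It used no measured value. Livers were collected 10 hours after lights on (ZT10) from C57BL/6 mice of about 20 weeks, kept on standard chow in alternating light and dark. Poly-A RNA was counted by a 3′ tag method that gives 1 read per molecule, so that a level is not tied to transcript length. Siah2 encodes a ubiquitin ligase, and the study asked how its loss changes liver gene expression in each sex. The 4 groups of 3 mice were wild type females (WTF), Siah2-/- females (KOF), wild type males (WTM) and Siah2-/- males (KOM). The genotypes differed by the whole-body deletion and were kept as related lines bred from intercrossed heterozygotes. A difference between the genotypes can therefore not be told apart from one between these lines. The knockout was constitutive, so these livers carry any effect of its loss in other organs and earlier in life. Females and males came in separate tables, so a difference between the sexes cannot be told apart from one between the tables.

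Conjugation adds a polar group to drugs, steroids, bile acids, bilirubin and reactive by-products, which are then carried into bile or blood. UGT enzymes sit in the endoplasmic reticulum and transfer glucuronic acid from a nucleotide sugar, SULT enzymes transfer sulfate from the activated donor PAPS, and GST enzymes join electrophiles to glutathione. In the mouse liver many of these genes are known to be expressed differently in males and females, under the control of the sex-specific pattern of growth hormone release.

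Total counts ranged from 1293688 to 4056144 per mouse, and the conjugation enzymes took 0.527% to 0.684% of them. Levels are given as CPM, the counts relative to a TMM-scaled library size, with scaling common to the 12 mice. Hepatocyte markers were abundant (38583 to 59556 CPM summed over 8 genes), although Ass1 was near 0 in every mouse. Xist was at 66.2 to 113 CPM in females and under 1 CPM in males, which matched the labelled sex. Siah2 itself was at 11.5 to 16.97 CPM in WTF, 9.63 to 12.5 CPM in KOF, 16.8 to 27.1 CPM in WTM and 9.42 to 17.4 CPM in KOM. These ranges overlapped in both sexes, and the sources used here do not say whether the deleted part holds the counted 3′ end, so the tag does not check the labels. WTF 1091 stood apart from WTF 1089 and WTF 1090 in many genes, conjugation enzymes included, and several results that rest on it are given with and without it.

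Of the 59 genes, 51 had at least 1 count, and 8 had none in any mouse (Ugt1a2, Ugt1a6a, Ugt1a7c, Ugt1a10, Ugt2a1, Ugt2a2, Sult1c1 and Sult2b1). Another 7 had between 1 and 20 counts over the 12 mice. The filter on low counts left 36 genes in at least 1 comparison and 29 in every comparison. The GST genes together were the most abundant family, at 3220 to 5218 CPM per mouse. Gstm1, a mu-class enzyme, had the highest mean over the 12 mice, with 761 ± 231 CPM (SD, n = 3 mice) in WTF, 774 ± 45.4 in KOF, 1085 ± 104 in WTM and 983 ± 193 in KOM. Gstz1, which isomerises maleylacetoacetate in tyrosine breakdown, was next, at 823 ± 467, 938 ± 222, 814 ± 86.0 and 788 ± 167 CPM in the same order, with a mean above that of Gstm1 in both female groups, and its range overlapped that of Gstm1 in each group except WTM. Gsta3, an alpha-class enzyme that handles aflatoxin epoxide, and the theta-class Gstt3 followed. The 4 highest genes took 66.0% of the GST sum.

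The UGT genes summed to 818 to 1949 CPM per mouse. Ugt2b5, a steroid and drug glucuronidating enzyme, took 25.3% of that sum, and the 4 highest, Ugt2b5, Ugt2a3, Ugt2b34 and Ugt2b36, took 73.3%. Their order was not fixed. In WTF the means of Ugt2b5 (283 ± 72.1 CPM, SD, n = 3 mice), Ugt2a3 (273 ± 24.3), Ugt2b36 (232 ± 110) and Ugt2b34 (204 ± 90.1) belonged to ranges that overlapped, whereas in WTM Ugt2b5 stood at 492 ± 58.1 CPM, above the other 3 at 238 to 251. The SULT genes were the least abundant in each mouse except KOF 1104, at 345 to 1359 CPM, and Sult1a1, the phenol sulfotransferase, took 56.1% of their sum.

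**Figure D1:**
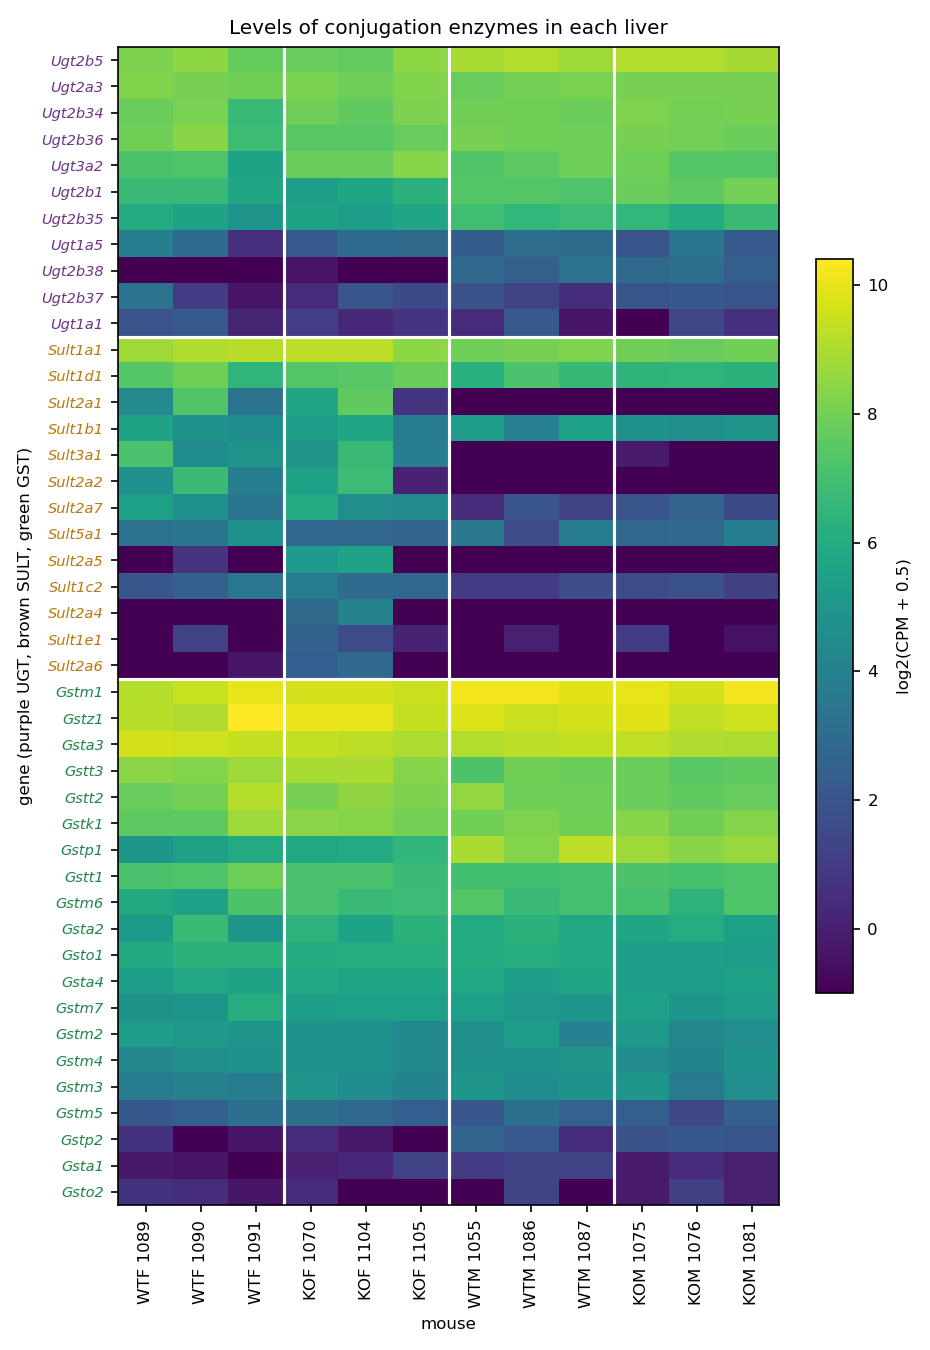
Levels of the 44 conjugation enzymes with more than 20 counts over 12 mice, as log2(CPM + 0.5), with 1 column per mouse and genes ordered by mean level within the UGT, SULT and GST families. Sult2a1, Sult2a2 and Sult3a1 are dark in the male columns, Ugt2b38 is dark in the female columns, and Gstp1 is brighter in every male than in any female.

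Genes of the Ugt1 locus could not be told apart. The 8 Ugt1a symbols lie on chromosome 1 of GRCm38.p6 between 88055411 and 88220002, and in RefSeq 7 of them end at the same base, 88220002, because separate first exons are spliced to one set of shared 3′ exons. They had 274 counts over the 12 mice, 0.552% of the UGT counts, so the UGT sums given here are almost wholly those of Ugt2 and Ugt3a genes. Whether tags in the shared exons went uncounted was not tested. Most of the 274 counts were listed under Ugt1a5 and Ugt1a1, the bilirubin glucuronosyltransferase. Levels of single Ugt1a genes were therefore not interpreted. The same holds in part for Gstp1 and Gstp2 on chromosome 19, since 99.2% of the 50-base windows in the last 300 bases of Gstp1 also occur in Gstp2.

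The family sums differed between the sexes for SULT and UGT genes in opposite directions. SULT genes summed to 900, 1132 and 804 CPM in WTF, 1100, 1359 and 653 in KOF, 363, 436 and 452 in WTM and 373, 345 and 383 in KOM. Each female was above each male, and the female mean was 2.53 times the male mean. UGT genes summed to 1405, 1551 and 818 CPM in WTF, 1230, 1150 and 1622 in KOF, 1666, 1767 and 1698 in WTM and 1949, 1778 and 1783 in KOM. Each male was above each female, with a male mean 1.37 times the female mean. GST genes summed to 3220 to 5218 CPM in females and 3360 to 4489 in males, ranges that overlapped, and the sum over the 3 families also overlapped (5525 to 6840 CPM in females, 5484 to 6686 in males). With the median-ratio size factors of DESeq2 the order of the group means was the same for SULT and UGT genes, while WTF and KOM, which were close (3934 and 3955 CPM for GST genes), changed places for GST genes and for the sum over the 3 families. In whole tissue, fewer cells of a type and less RNA per cell cannot be told apart.

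**Figure D2:**
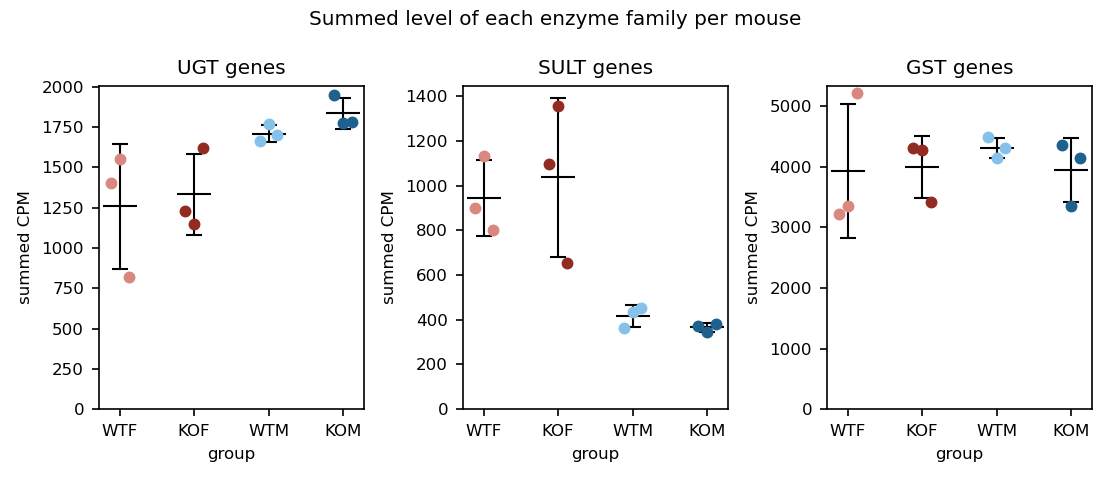
Summed CPM of the UGT, SULT and GST genes in each mouse (points), with the mean and SD of the 3 mice of each group (black). All 6 females lie above all 6 males for SULT genes and below them for UGT genes, and WTF 1091 is the lowest mouse for UGT (818) and the highest for GST (5218).

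Females were compared with males within each genotype and over both genotypes with edgeR's quasi-likelihood test, fitted to all genes, with Benjamini-Hochberg adjustment at a threshold of 0.05. Over both genotypes, 15 of 36 conjugation enzymes tested passed, 9 higher in females and 6 higher in males. Among all 9806 genes tested 7.79% passed, 3.65% higher and 4.14% lower in females. In wild type mice alone 5 of 35 passed (3 higher and 2 lower in females). There 1.39% of 9335 genes passed, 0.686% higher and 0.707% lower. In Siah2-/- mice 13 of 33 passed (8 higher and 5 lower), where 11.5% of 9102 genes did, 5.69% higher and 5.78% lower. All 9 genes called higher in females over both genotypes were SULT or GST genes, and the 6 called higher in males were UGT or GST genes. Some of these counts are set by the filter on low counts. Sult1c2, Sult2a1, Sult2a2, Sult2a7 and Sult3a1 did not pass it within males, nor Ugt2b38 within females, nor Gstp2 within either sex, so that these 7 entered the test through the sex or the mice in which they were high. With at least 10 counts in every library 8 of 26 were called, 4 higher and 4 lower in females, where 8.91% of genes passed. The levels of 11 of the 36 genes did not overlap between the 6 females and the 6 males, 7 above and 4 below, where 4.49% of all genes tested did not overlap, 2.0% above and 2.49% below.

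Cell type markers differed between the sexes as well. Of 8 Kupffer and immune cell genes in the table, 5 were tested over both genotypes. All 5 were called higher in females, where 3.65% of all genes tested were. Only 2 of the list passed the filter on low counts within males, so the others entered the test through the females. The list summed to 253 to 437 CPM in females and 56.0 to 279 in males. The defining T and B cell genes Cd3e and Cd79a were under 1 CPM in each mouse. Alas2, an erythroid heme synthesis enzyme, was at 8.47 to 25.2 CPM in females and 83.9 to 154 in males, while the 4 globin symbols were listed at 0. Bile duct (9.87 to 45.1 CPM in females, 27.8 to 56.3 in males) and endothelial and stellate markers (143 to 349 and 141 to 213) overlapped, and no gene of either list was called by edgeR over both genotypes. Fat cell markers were at 0 to 0.722 CPM in females and 0.503 to 26.4 in males, and pancreatic acinar markers at 10.8 to 28.0 and 13.6 to 57.4. The fat sum was almost wholly Cfd, with Plin1 at 0 and Adipoq at 0.377 CPM in KOM 1075 alone. The acinar sum was almost wholly Cela1, with Prss1, Cpa1 and Amy2a5 at 0 in each mouse. Hepatocyte markers summed to 45920 to 59556 CPM in females and 38583 to 51408 in males. Their part in the results on conjugation enzymes was not tested.

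Of 9 UGT genes tested over both genotypes, 4 were called, all of the Ugt2b group and higher in males, where 4.14% of all genes tested were. Ugt2b34 and Ugt2b36 of that group were not called (log2 fold change −0.21 and −0.27, edgeR adjusted p = 0.573 and 0.448). The Ugt2 genes lie together on chromosome 5 of GRCm38.p6 (86889770 to 87490871), and their enzymes glucuronidate steroids, bile acids and drugs. Ugt2b1 was at 106, 103 and 54.1 CPM in WTF, 40.0, 53.8 and 79.5 in KOF, 161, 162 and 151 in WTM and 221, 192 and 259 in KOM. Each male was above each female. The log2 fold change was −1.41 ± 0.19 (SE) over both genotypes (edgeR, adjusted p = 0.000206) and −1.98 ± 0.22 in Siah2-/- mice (adjusted p = 3.22e-05), and in wild type mice it was −0.83 ± 0.27 with an adjusted p of 0.191.

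Ugt2b5 and Ugt2b35 were also called over both genotypes and in Siah2-/- mice. Ugt2b5 was at 285, 354 and 210 CPM in WTF, 215, 203 and 359 in KOF, 490, 550 and 434 in WTM and 548, 539 and 463 in KOM, without overlap between the sexes (log2 fold change −0.90 ± 0.17 SE over both genotypes, edgeR adjusted p = 0.00421). Ugt2b35 was at 29.9 to 64.3 CPM in females and 63.8 to 119 in males, where WTF 1089 lay just above KOM 1076 (log2 fold change −1.07 ± 0.19 SE, edgeR adjusted p = 0.00209).

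Ugt2b38 was read almost wholly in males. It was at 6.88, 5.03 and 8.97 CPM in WTM and 7.16, 8.25 and 4.93 in KOM, and in females it had 1 count, in KOF 1070. The 106 counts of the 6 males against 1 in the 6 females gave a ratio of 118 (counting interval at 95% 20.7 to 4708, which covers counting error only), and edgeR's adjusted p over both genotypes was 1.71e-05. The gene was called in both genotypes, but it passed the filter on low counts only through the males and could be called in that direction alone. Ugt2a3, which glucuronidates bile acids, and Ugt2b34 and Ugt2b36 were not called in either genotype. Ugt2a3 had 234 to 305 CPM in females and 213 to 277 in males.

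Of 9 SULT genes tested over both genotypes 7 were called, higher in females, where 3.65% of all genes tested were. However, 5 of these 7 passed the filter on low counts only through the females. With at least 10 counts in every library the SULT genes called were Sult1a1 and Sult1d1. Sult1a1 was at 442, 525 and 591 CPM in WTF, 628, 601 and 359 in KOF, 234, 270 and 290 in WTM and 246, 216 and 252 in KOM. The lowest female, KOF 1105, was above the highest male. The log2 fold change was 1.06 ± 0.16 (SE) over both genotypes (edgeR, adjusted p = 0.000414), 1.16 ± 0.19 in Siah2-/- mice (adjusted p = 0.00133) and 1.01 ± 0.24 in wild type mice, where the adjusted p was 0.0783.

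Sult1d1, which sulfates catecholamines, was at 167, 243 and 87.6 CPM in WTF, 165, 175 and 228 in KOF, 75.7, 143 and 101 in WTM and 85.9, 89.0 and 81.3 in KOM. The sexes overlapped through WTF 1091 alone, which lay below WTM 1086, WTM 1087 and KOM 1076 (log2 fold change 0.89 ± 0.22 SE over both genotypes, edgeR adjusted p = 0.0184). Sult1c2 was low in both sexes, at 3.61 to 13.3 CPM in females and 1.51 to 3.04 in males, without overlap (log2 fold change 1.79 ± 0.36 SE, adjusted p = 0.00627). This gene passed the filter on low counts only through the females. Sult1b1, which sulfates thyroid hormones, spanned 13.8 to 51.6 CPM in females and 15.1 to 43.9 in males and was not called.

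**Figure D3:**
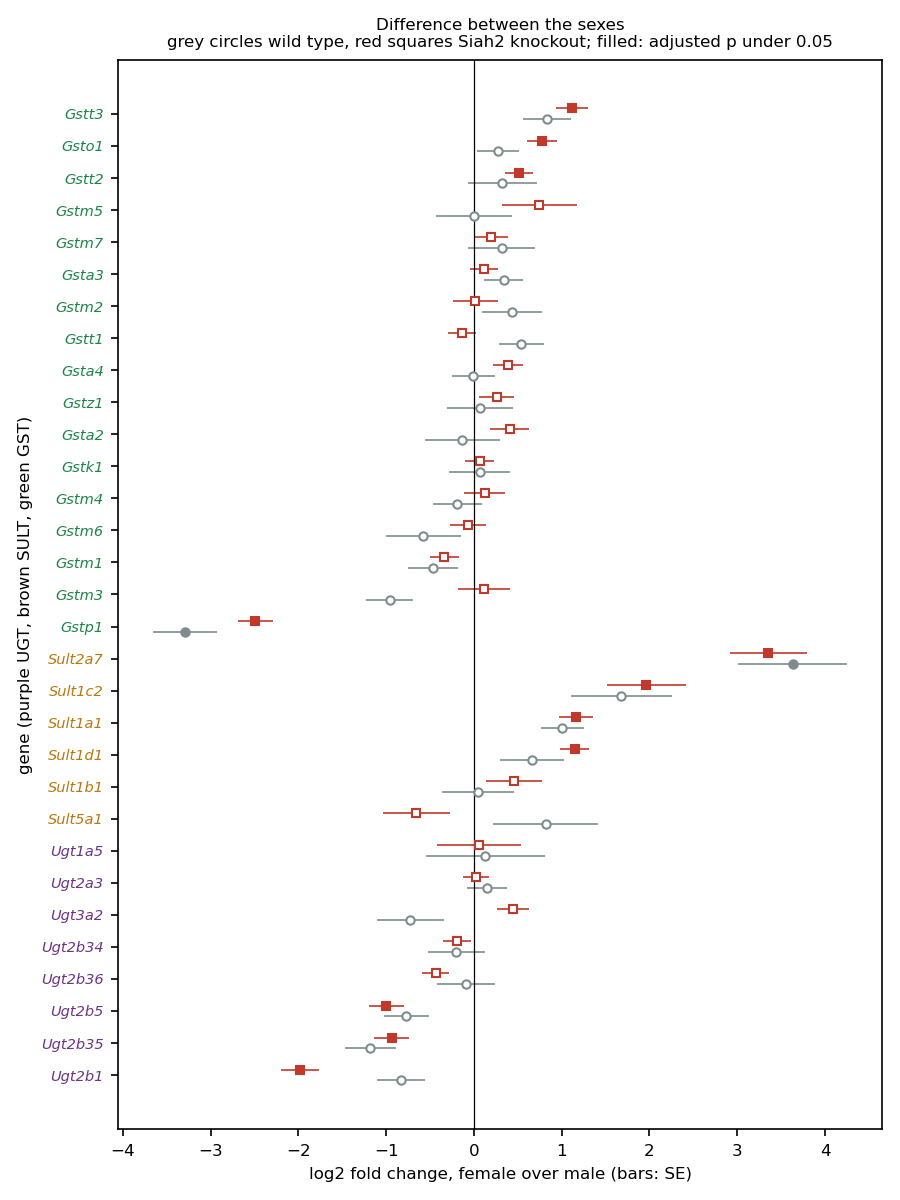
Fitted log2 fold change of females over males for 31 conjugation enzymes in wild type mice (grey circles) and Siah2-/- mice (red squares), with SE bars, where filled marks have an edgeR adjusted p under 0.05. Sult2a7 is the farthest to the right (3.63 and 3.36) and Gstp1 the farthest to the left (−3.29 and −2.49). Sult2a1, Sult2a2, Sult3a1 and Ugt2b38 are not drawn because a group had 3 counts or fewer, nor is Gstp2, which was not tested within either genotype.

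Of the hydroxysteroid sulfotransferases of the Sult2a group, which sulfate steroids and bile acids, all but Sult2a7 had counts in females only. Their 7 genes lie in one cluster on chromosome 7 of GRCm38.p6 (13623967 to 14493023). None of Sult2a1 to Sult2a6 had a count in any of the 6 males. In females the 6 genes summed to 46.9, 268 and 24.5 CPM in WTF 1089, 1090 and 1091 and to 147, 384 and 1.81 CPM in KOF 1070, 1104 and 1105. Both female groups held high and low mice, with WTF 1090, KOF 1070 and KOF 1104 high and KOF 1105, which had 3 counts in all, near the males.

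Sult2a1 was at 20.2, 157 and 9.56 CPM in WTF and 52.8, 196 and 1.20 in KOF. The 1340 counts of the females were at least 401 times the level of the males, set at 3 counts over the group. Sult2a2 was at 26.7, 108 and 14.7 CPM in WTF and 45.7, 114 and 0.602 in KOF, at least 287 times the male level. Both were called over both genotypes by edgeR (adjusted p = 0.00416 and 0.00207) and not by limma-voom (adjusted p = 0.129 and 0.0847). With no count in males, both passed the filter on low counts only through the females and could be called in that direction alone. In Siah2-/- mice alone both fell under the filter, and both were called without KOF 1105 or without any 1 of the KOM mice.

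Sult2a5, Sult2a4, Sult2a6 and Sult2a3 were read mainly in KOF 1070 and KOF 1104. Sult2a5 was at 34.4 and 47.9 CPM in those mice and at 0, 1.20 and 0 in WTF and 0 in KOF 1105. Sult2a4 was at 7.31 and 16.9 CPM in the same pair and had no count in the other 4 females. Over both genotypes the female counts were at least 78.1 times the male level for Sult2a5, 21.8 times for Sult2a4, 11.4 times for Sult2a6 and 5.69 times for Sult2a3, and none of the 4 passed the filter on low counts in any comparison with all mice included. The transcript ends of some Sult2a genes are alike. In the last 300 bases, 80.1% of the 50-base windows of Sult2a2 also occur in another gene, as do 56.7% for Sult2a5, 36.7% for Sult2a4, 9.16% for Sult2a1, 4.38% for Sult2a3 and 0.797% for Sult2a6, so the split of counts among Sult2a2, Sult2a5 and Sult2a4 is uncertain.

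Sult2a7 and Sult3a1 were also higher in females. Sult2a7 was at 44.0, 26.1 and 10.2 CPM in WTF, 63.0, 24.3 and 21.7 in KOF, 0.765, 3.52 and 1.86 in WTM and 3.39, 5.64 and 2.46 in KOM. No female overlapped a male (log2 fold change 3.47 ± 0.43 SE over both genotypes, edgeR adjusted p = 7.37e-05). Sult3a1, which sulfonates amines, was at 140, 23.1 and 29.3 CPM in WTF, 29.5, 106 and 14.5 in KOF and had 1 count in the males, in KOM 1075. The 978 female counts against that 1 gave a ratio of 878 (counting interval at 95% 157 to 34711), with an edgeR adjusted p of 7.37e-05. Neither Sult2a7 nor Sult3a1 passed the filter on low counts within males, so both entered these tests through the females. WTF 1089, low in Sult2a1, was the highest mouse for Sult3a1.

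**Figure D4:**
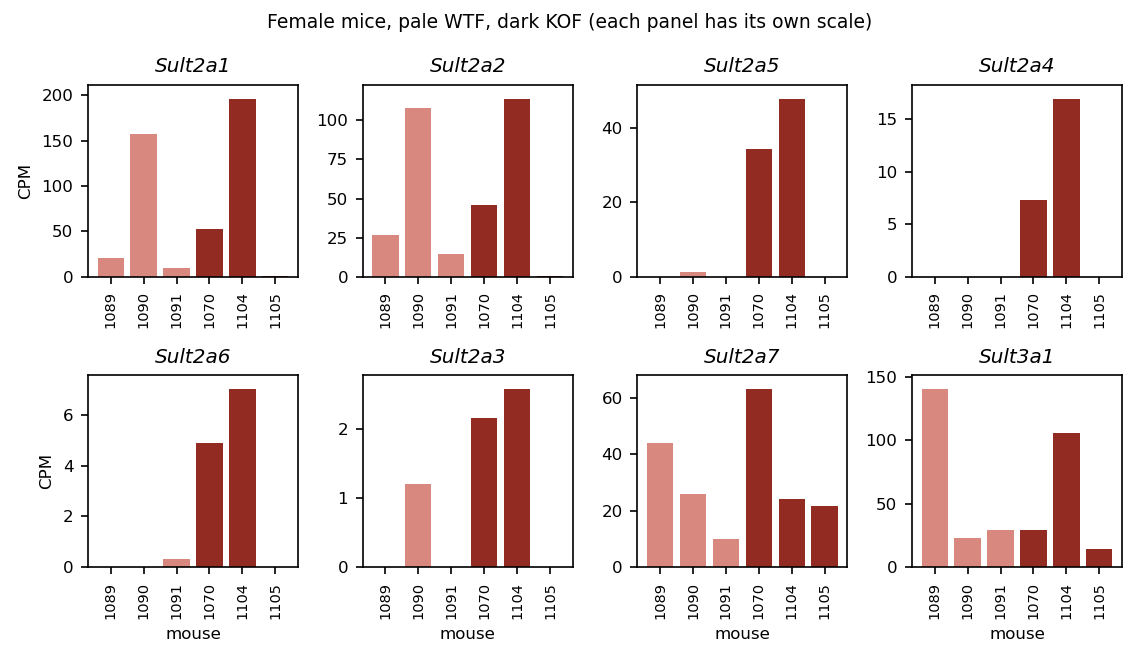
CPM of the Sult2a genes and Sult3a1 in the 6 females, with 1 bar per mouse and a separate scale from 0 in each panel. Sult2a1 and Sult2a2 are high in WTF 1090 and KOF 1104, Sult2a5, Sult2a4, Sult2a6 and Sult2a3 in KOF 1070 and KOF 1104, and Sult3a1 in WTF 1089 and KOF 1104.

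The promoters of the Sult2a genes are shown because these genes were read together in the same few females. RefSeq on GRCm38.p6 gave promoters for 51 of the 59 genes, and for Sult2a5, Sult2a4, Sult2a3 and Sult2a6 within the cluster. The 250 bases before the start are printed 5′ to 3′ on the strand of the gene, and capitals mark GTTAAT on either strand, the core letters bound by HNF1, a hepatocyte transcription factor.

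Sult2a5, chr7:13623717-13623966, plus strand: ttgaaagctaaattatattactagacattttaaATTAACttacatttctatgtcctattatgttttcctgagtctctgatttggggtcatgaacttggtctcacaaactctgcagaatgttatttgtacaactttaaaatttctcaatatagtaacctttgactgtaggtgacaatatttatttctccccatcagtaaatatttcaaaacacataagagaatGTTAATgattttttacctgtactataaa
Sult2a4, chr7:13989589-13989838, minus strand: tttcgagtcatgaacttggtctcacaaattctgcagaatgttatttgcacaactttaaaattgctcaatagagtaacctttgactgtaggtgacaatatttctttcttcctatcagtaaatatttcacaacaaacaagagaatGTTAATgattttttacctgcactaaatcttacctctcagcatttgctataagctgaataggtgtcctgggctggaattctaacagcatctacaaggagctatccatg
Sult2a3, chr7:14123049-14123298, minus strand: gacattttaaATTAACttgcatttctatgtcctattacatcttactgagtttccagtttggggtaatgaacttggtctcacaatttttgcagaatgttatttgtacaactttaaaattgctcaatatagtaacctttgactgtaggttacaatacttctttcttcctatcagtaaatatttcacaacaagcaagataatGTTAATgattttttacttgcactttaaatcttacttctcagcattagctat
Sult2a6, chr7:14254871-14255120, minus strand: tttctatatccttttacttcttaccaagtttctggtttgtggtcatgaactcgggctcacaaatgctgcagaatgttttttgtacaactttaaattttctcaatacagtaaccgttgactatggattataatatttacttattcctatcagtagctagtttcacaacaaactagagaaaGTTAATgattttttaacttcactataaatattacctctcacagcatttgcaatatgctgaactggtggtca

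All 4 windows held the letters, with 2 matches in Sult2a5 and Sult2a3 and 1 in Sult2a4 and Sult2a6. The longest run of letters shared by the 4 windows, GTTAATgatttttta with 15 bases, was in no other window of the 27025 genes, and it was looked for after the windows were seen. Among the 51 conjugation enzymes with a promoter 13 held GTTAAT (25.5%), as did 7.49% of 27025 genes in RefSeq, and beside these 4 they were Gsta3, Sult1a1, Sult1d1, Ugt1a1, Ugt1a6a, Ugt1a9, Ugt1a10, Ugt2a3 and Ugt3a1. Identity between the Sult2a windows in a global alignment was 48.9% to 73.3%. The letters TTCNNNGAA, bound by the growth hormone factor STAT5, were in 4 of the 51 (7.84%, against 8.13% of all genes), and of the 6 promoters from genes called higher in females only that of Sult3a1 held them, in capitals here. The start that RefSeq's promoter table uses for Sult3a1 lies inside the span listed for the gene (33851020 to 33879475 on chromosome 10), as it does for several others, so this window precedes an internal start.

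Sult3a1, chr10:33857472-33857721, plus strand: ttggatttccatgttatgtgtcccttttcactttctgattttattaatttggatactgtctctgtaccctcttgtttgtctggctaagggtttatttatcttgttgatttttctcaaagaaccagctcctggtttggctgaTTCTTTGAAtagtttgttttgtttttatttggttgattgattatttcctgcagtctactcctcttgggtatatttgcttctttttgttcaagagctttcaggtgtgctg

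ATTGAT, the core letters of HNF6 and CUX2, was in 6 of 51 (11.8%, against 7.72% of all genes), and TGACNNNGC, the antioxidant response core, was in 3, namely Gsta3, Gstm5 and Gstm7 (5.88%, against 11.5%). Both strands were searched, and no match of one motif overlapped one of another. A match is a run of letters and was not tested as a binding site.

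Among GST genes, Gstp1, the pi-class enzyme that is abundant in male mouse liver, was higher in males. It was at 32.1, 46.2 and 63.4 CPM in WTF, 56.0, 61.5 and 92.1 in KOF, 498, 310 and 623 in WTM and 421, 336 and 407 in KOM. The lowest male was above the highest female. The log2 fold change of females over males was −2.91 ± 0.21 (SE) over both genotypes (edgeR, adjusted p = 1.81e-07), −3.29 ± 0.37 in wild type mice (adjusted p = 0.00148) and −2.49 ± 0.20 in Siah2-/- mice (adjusted p = 7.35e-07), and it was called under each alternative run. Gstp2 followed at 0 to 1.083 CPM in females and 0.928 to 6.12 in males (log2 fold change −2.76 ± 0.64 SE, adjusted p = 0.0144), with most of its 3′ end shared with Gstp1. It entered the test through the mice in which it was high.

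The theta-class gene Gstt3 was at 348, 318 and 422 CPM in WTF, 484, 501 and 326 in KOF, 148, 244 and 233 in WTM and 230, 181 and 196 in KOM. Each female was above each male (log2 fold change 0.95 ± 0.16 SE over both genotypes, edgeR adjusted p = 0.00184). Its neighbours Gstt1 and Gstt2, on the same stretch of chromosome 10, were not called over both genotypes, and Gstt2 passed in Siah2-/- mice only narrowly (log2 fold change 0.51 ± 0.16 SE, adjusted p = 0.0468). Gsto1, an omega-class thioltransferase, was at 59.9 to 81.3 CPM in females and 38.4 to 67.9 in males, which overlapped (log2 fold change 0.51 ± 0.13 SE, edgeR adjusted p = 0.0297). Of the 7 mu-class genes, clustered on chromosome 3, none was called in these 3 comparisons with all mice included. Gstm1 had a log2 fold change of −0.43 ± 0.16 (SE) over both genotypes with an edgeR adjusted p of 0.114. Without WTF 1091 Gstm1 (−0.56 ± 0.12 SE, edgeR adjusted p = 0.00618) and Gstm6 (−0.69 ± 0.17 SE, adjusted p = 0.013) were called over both genotypes, where 14.0% of all genes passed.

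Calls in wild type mice rested on few libraries. Without WTM 1055 or without WTM 1087 only Gstp1 of the 5 was still called (0.456% and 0.451% of all genes passed), and without WTM 1086 there were 3 (0.773%). Without WTF 1091 there were 10, which added Sult1a1, Sult2a1, Ugt2b35, Gstm1 and Gstm6, while 7.73% of all genes passed. Over both genotypes the count without WTF 1091 was 17, with 14.0% of all genes. In Siah2-/- mice the count rose from 13 to 20 without KOF 1105 (11.2% of all genes) and to 17 without KOM 1075 (7.88%) or KOM 1076 (7.50%). In each of these 3 settings Sult2a1, Sult2a2, Sult2a4, Sult2a5 and Sult2a6 passed the filter and were called higher in females. These genes had no count in any male, so they passed through the females and could be called in that direction alone. DESeq2 called 7, 14 and 15 conjugation enzymes in wild type mice, in Siah2-/- mice and over both genotypes (3.74%, 9.91% and 9.12% of the genes it tested), and limma-voom 3, 13 and 13 (1.16%, 11.98% and 8.01%). With no filter beyond 1 count edgeR called 8, 19 and 16 (3.17%, 7.56% and 6.21% of all genes).

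Genes that serve the same reactions moved in both directions between the sexes. Of 51 genes on 5 lists (cosubstrate supply, other conjugating enzymes, deconjugation and hydration, efflux of conjugates, and regulators), 46 were tested over both genotypes and 12 were called, 4 higher and 8 lower in females, beside 7.79% of all genes (3.65% higher and 4.14% lower). Among cosubstrate genes, Papss2, which makes the sulfate donor PAPS, was higher in females (93.9 to 225 CPM, against 52.5 to 102 in males), and Ugdh, which makes UDP-glucuronic acid, was higher in males (30.3 to 122 CPM in females, 170 to 277 in males). The glutathione synthesis gene Gclc and the glutathione reductase Gsr were also called higher in males over both genotypes, and each was called in 1 genotype. Gsr was at 51.6 to 62.1 CPM in WTF and 149 to 159 in WTM (log2 fold change −1.36 ± 0.22 SE, edgeR adjusted p = 0.0133), but at 117 to 128 in KOF, inside the 104 to 175 of KOM (−0.19 ± 0.18 SE, adjusted p = 0.551). Gclc was called in Siah2-/- mice (−1.53 ± 0.19 SE, edgeR adjusted p = 0.000104) and not in wild type mice (−0.62 ± 0.33 SE, adjusted p = 0.41). The interaction term passed for neither gene (edgeR adjusted p = 0.0829 for Gsr and 0.342 for Gclc). Nat8, which acetylates cysteine conjugates on the way to mercapturic acids, was at 0.956 to 4.21 CPM in females and 32.1 to 62.7 in males. Of 4 efflux transporters, Abcg2 was called, higher in males (25.7 to 40.5 CPM in females, 65.9 to 98.6 in males). Of 15 regulators tested 1 was called, Cux2, a repressor known from female liver, at 1.84 to 7.22 CPM in females and at most 0.503 in males. Cux2 passed the filter on low counts only through the females, and Nat8 only through the males. Both are among the 12 called, and the lists were chosen with earlier results of these data known.

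The effect of Siah2 loss was then compared within each sex. In females edgeR called none of 34 conjugation enzymes, and none of 9465 genes tested (0.0%). Of the 34, 3 had an unadjusted p under 0.05 by edgeR, beside 1478 of the 9465 genes. DESeq2 called 0 of 35 (3.7% of all genes it tested passed), and limma-voom called 0. With no filter beyond 1 count edgeR called 5 (2.82% of genes). The levels of 5 of the 34 did not overlap between the genotypes, where 23.3% of all genes tested did not, 11.4% above and 11.9% below in KOF. Ugt3a2, of a UGT subfamily that uses other sugar donors, was at 150, 152 and 49.0 CPM in WTF and 229, 230 and 318 in KOF, so that each KOF mouse was above each WTF mouse. Its log2 fold change was 1.13 ± 0.39 (SE), with an edgeR adjusted p of 0.202. Sult5a1 was at 9.02, 10.2 and 27.7 CPM in WTF and 6.22, 6.26 and 6.02 in KOF (log2 fold change −1.35 ± 0.47 SE, adjusted p = 0.202), and the mu-class Gstm3 at 13.7, 15.3 and 13.4 CPM in WTF and 30.9, 23.2 and 17.5 in KOF (0.76 ± 0.29 SE, adjusted p = 0.234).

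These values depended on WTF 1091. Without it edgeR called 5 conjugation enzymes higher in KOF and none lower, while 9.64% of 9709 genes passed. Of these 5, Sult2a5 and Sult2a4 passed the filter only through KOF 1070 and KOF 1104 and could be called in that direction alone. Ugt3a2 then had a log2 fold change of 0.78 ± 0.20 (SE, edgeR adjusted p = 0.035), the mu-class Gstm6 1.17 ± 0.21 (adjusted p = 0.00949) and the kappa-class Gstk1 0.69 ± 0.19 (adjusted p = 0.0419). Gstm6 was at 59.9 and 45.9 CPM in WTF 1089 and 1090 and 150 in WTF 1091, against 104 to 139 in KOF, so that WTF 1091 was above all KOF mice and the other WTF mice below them. DESeq2 without WTF 1091 called 6, where 12.2% of the genes it tested passed, with Gstz1 added and with Ugt2b1 and Ugt2b36 lower in KOF, and without Sult2a4 and Sult2a5.

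In males edgeR called none of 30 conjugation enzymes and none of 8823 genes (0.0%). Of the 30, 3 had an unadjusted p under 0.05, beside 357 of the 8823 genes. DESeq2 called 0 of 44 (0.037% of all genes it tested passed) and limma-voom 0, and edgeR with no filter beyond 1 count 0 (0.179%). Gsto1 was at 65.0, 67.9 and 54.8 CPM in WTM and 40.7, 39.9 and 38.4 in KOM, without overlap (log2 fold change −0.66 ± 0.18 SE, edgeR adjusted p = 0.9999, unadjusted p = 0.00281 by the same test). Ugt2b1 was at 151 to 162 CPM in WTM and 192 to 259 in KOM (0.49 ± 0.16 SE, unadjusted p = 0.00761 by edgeR), and Gstt2 at 236 to 381 CPM in WTM and 197 to 230 in KOM (−0.42 ± 0.19 SE). The levels of 5 of 30 did not overlap, where 8.87% of all genes tested did not, 4.45% above and 4.42% below in KOM.

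**Figure D5:**
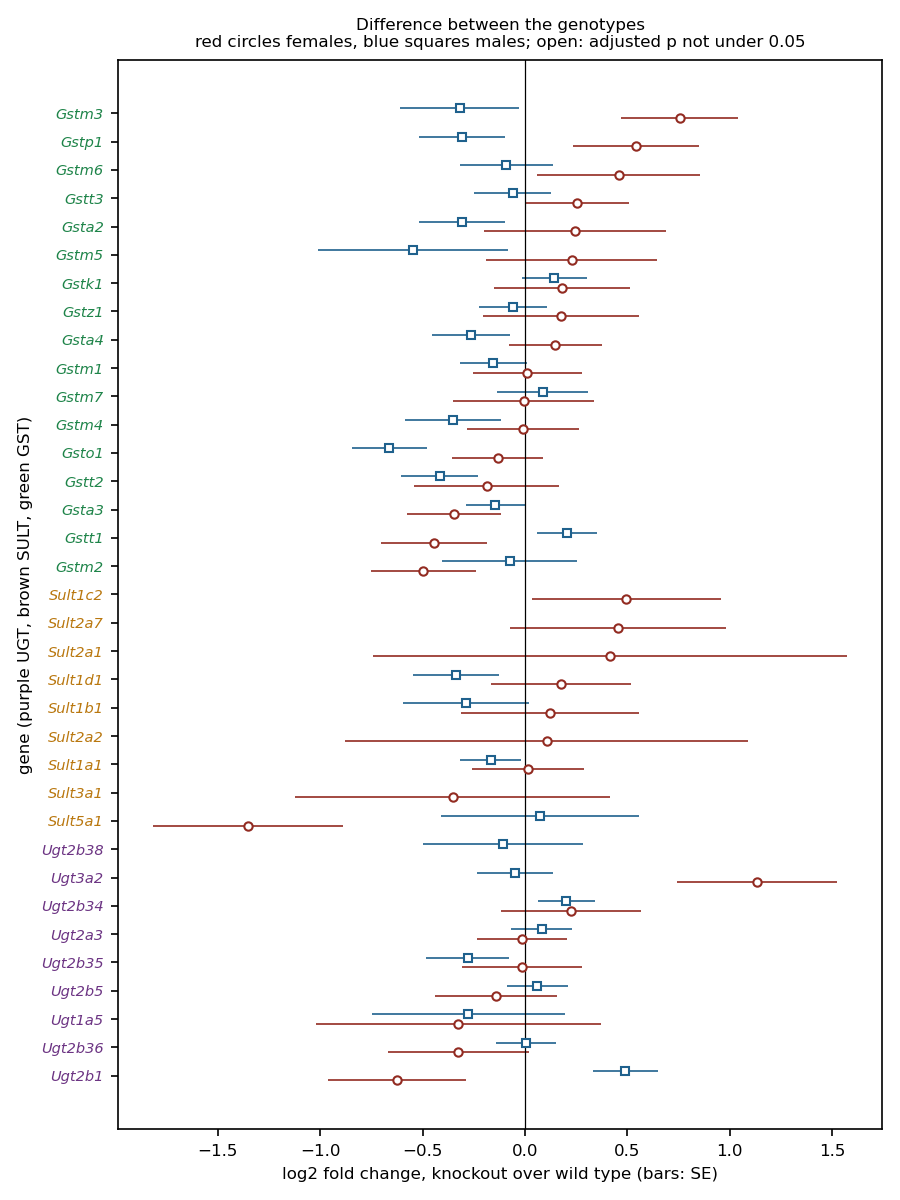
Fitted log2 fold change of Siah2-/- over wild type mice for each conjugation enzyme tested in females (red circles) or males (blue squares), with SE bars, all marks open because none had an edgeR adjusted p under 0.05. Ugt3a2 (1.13) and Sult5a1 (−1.35) in females lie farthest from 0, and Ugt2b1 lies on opposite sides of 0 in females (−0.62) and males (0.49).

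Over both sexes none of 36 conjugation enzymes was called by edgeR (0.0102% of 9806 genes passed). An unadjusted p under 0.05 was found for 2 of them (Gsto1 and Ugt3a2), beside 960 of the 9806 genes. DESeq2 (2.21% of its genes passed), limma-voom, edgeR without WTF 1091 (1.42%) and edgeR with no filter beyond 1 count (0.632%) each called 0. The difference between the sexes in the effect of Siah2 loss was tested as an interaction term, and edgeR again called none of 36 (0.255% of 9806 genes passed). Of the 36, 4 had an unadjusted p under 0.05, beside 1382 of the 9806 genes. DESeq2 (3.32%) and limma-voom called 0, and edgeR with no filter beyond 1 count called 1, Ugt3a2 (1.82% of genes). The smallest p belonged to Ugt2b1, with a log2 effect in females minus that in males of −1.12 ± 0.38 (SE, edgeR adjusted p = 0.193). Without WTF 1091 it was −1.37 ± 0.30 with an adjusted p of 0.018, and Gstm6 was also called at 1.25 ± 0.35 (adjusted p = 0.0445), where 5.15% of 10127 genes passed. The adjusted p of Ugt2b1 lay between 0.176 and 0.365 without each of the other 11 mice. For Ugt3a2 the effect was 1.18 ± 0.46 (SE, adjusted p = 0.251) and for Gstm3 1.09 ± 0.43 (adjusted p = 0.257).

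None of the genes on the 5 lists was called between genotypes by edgeR in females (0 of 45), in males (0 of 44) or over both sexes (0 of 46). An unadjusted p under 0.05 was found for 9, 2 and 6 of them, beside 1478 of 9465, 357 of 8823 and 960 of 9806 genes. DESeq2 called 3 in females (beside 3.7% of all genes) and 0 in the other two comparisons, and limma-voom 0 in each. The interaction gave 0 of 46 by edgeR, with 6 at an unadjusted p under 0.05 (beside 1382 of 9806 genes), and 2 by DESeq2 (beside 3.32%). Without WTF 1091 edgeR called 7 of these genes in females and 5 in the interaction, beside 9.64% and 5.15% of all genes.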

How the data were processed

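RNA from 12 mouse livers was sequenced as 3′ tags, and the files hold raw counts per gene symbol, which the authors deposited in a table for each sex. The submitters' processing notes name STAR, DESeq and mm10, without versions. The labels describe RNA pooled from 3 mice, while the study design and methods describe individual livers for this experiment, and the columns were treated as individual mice. Both tables list the same 23420 symbols and were joined. Counts were tested with edgeR 4.0.16 in R 4.3.3 (low counts removed by filterByExpr within the groups compared, libraries scaled by TMM, the two-sided quasi-likelihood test, and Benjamini-Hochberg adjustment over every gene tested at a threshold of 0.05). Within-sex and within-genotype comparisons used the 6 mice compared, and comparisons over both sexes or genotypes used all 12. Intervals and floors (3 counts over the low group) cover counting error only. Alternatives were median-ratio (RLE) scaling, DESeq2 1.42.0, limma-voom 3.58.1, other filters, a fit of all 4 groups and leaving out each mouse. DESeq2 without WTF 1091 was added after the data were seen. The test was checked on simulated counts.

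Named genes were those called in a comparison (up to 15), the 5 with the smallest p where fewer than 5 were called, the 4 highest of each family, those DESeq2 called between genotypes within a sex or in the interaction (there were none), and Siah2, Xist and Ddx3y. Others named, such as Gstm6 and Gstk1, were chosen after their values were seen. The members and the lists of pathway and marker genes were chosen with earlier results of these data known, and 27 date-like symbols were left as they were. Positions and promoters are from RefSeq on GRCm38.p6, the build of mm10, and transcript ends are from GENCODE M1 on NCBIM37.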

Additional observations from a re-analysis of the deposited data

How the results depend on the processing

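The number of conjugation enzymes called between wild type females and males, 5 in the test reported, was 3 by limma-voom (1.16% of all genes passed), 8 with no filter beyond 1 count (3.17%), 1 with at least 10 counts in every library (0.728%), 8 in a fit of all 4 groups (5.15%), 13 by DESeq2 without WTF 1091 (10.4%), and 1 to 10 with each mouse left out in turn (0.451% to 7.73%). Between Siah2-/- females and males it was 13, and 11 to 20 with each mouse left out (5.14% to 11.2% of all genes), with 20 without KOF 1105. Over both genotypes it was 15, 8 with at least 10 counts in every library, where fewer genes were tested (8.91% of them passed), and 12 to 17 with each mouse left out (4.75% to 14.0%). For KOF against WTF it was 0, 5 with no filter beyond 1 count (2.82%), 6 by DESeq2 without WTF 1091 (12.2%), and 0 to 5 with each mouse left out (0% to 9.64%). For KOM against WTM it was 0 throughout. For both sexes together it was 0, and 2 by DESeq2 without WTF 1091 (6.83%). For the interaction it was 0, 1 with no filter beyond 1 count (1.82%), 3 by DESeq2 without WTF 1091 (9.58%), and 0 to 2 with each mouse left out (0% to 5.15%). The cause of these shifts was not tested. RLE scaling changed none of these counts.

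Of 473 alternative values for genes called, 435 stayed past the threshold, 38 did not and 0 changed sign. Gsto1 over both genotypes was lost under 10 of 18 alternatives and Gstt2 in Siah2-/- mice under 7 of 12. Of 299 values for named genes not called, 290 stayed so and 9 passed. No paired analysis was possible because the groups share no replicate numbers. Groups held 3 mice each, and the shallowest library had 1293688 counts. Of the 59 genes, 23 did not pass the filter used in any comparison with all mice included. They hold the 8 genes with no count, Sult2a3 and Sult2a6, and also Sult2a5, which had 261 counts, with 127 in KOF 1070 and 130 in KOF 1104.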

Other observations

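Within wild type females, conjugation enzymes split by family in WTF 1091. Against the mean of WTF 1089 and WTF 1090, all 8 UGT genes tested were lower in WTF 1091 (median log2 ratio −1.12), while 12 of 17 GST genes were higher (median 0.64) and 6 of 9 SULT genes lower (median −1.23). The median over all genes tested was −0.12. The genes named next were chosen after their values were seen. Gstz1 was at 1361 CPM in WTF 1091 against a mean of 553, Gstk1 at 422 against 191, Gstm7 at 69.4 against 29.3 and Gstt2 at 561 against 237. Ugt2b36 was at 118 CPM against 289, Ugt2b34 at 104 against 254 and Ugt3a2 at 49.0 against 151.

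The GC content of the last 500 transcript bases differed between the families, with medians of 34.4% for UGT, 39.0% for SULT and 49.0% for GST genes. Across 33 conjugation enzymes Pearson's r between this GC content and the log2 ratio of WTF 1091 to the other two was 0.58, and across 9109 genes tested it was 0.35. For the log2 ratio of WTF 1089 to WTF 1090 it was −0.14 across the same enzymes. These are correlations across genes of single libraries, which share depth and base composition, and genes are not independent replicates. The part of GC content in the results on WTF 1091 was not tested.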
